A study of Homo sapiens with 12 samples.

Results

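The neurotrophin and GDNF receptors described here are the 7 genes NTRK2, NTRK3, NGFR, GFRA1, GFRA2, GFRA3 and RET, taken by symbol from the 26334 genes of the count tables. They were chosen because NTRK3 and GFRA1 had been seen to fall on depletion of RNF113A in these same libraries, so the members were chosen by measured values of the depletion contrast, which are given below as a description with no test. The effect of Cisplatin, and whether it differed between control and depleted cells, was not used in that choice and was tested.

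RNA was sequenced from A549, an established human lung adenocarcinoma line, in 4 groups of 3 libraries. All cells had been infected with lentivirus and kept in puromycin, and they carried either a control short hairpin (shControl) or a hairpin against RNF113A (shRNF113A), a zinc finger protein found in the spliceosome. Each kind was left untreated or given Cisplatin, a drug that crosslinks DNA, for 20 h. The labels put the dose at 25 µg/ml, while the study's methods give several other Cisplatin treatments of these cells in µM with the same figure, so the unit of the dose is uncertain. The 4 groups are shControl untreated, shControl Cisplatin, shRNF113A untreated and shRNF113A Cisplatin. The comparison asked how far the falls of NTRK3 and GFRA1 were shared by the other members of their families.

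Neurotrophins are secreted survival factors that bind Trk receptor tyrosine kinases: BDNF and NTF4 bind NTRK2, and NTF3 binds NTRK3. NGFR, also called p75NTR, is a low-affinity receptor of the neurotrophins and belongs to the TNF receptor superfamily. GDNF family ligands bind a membrane-anchored coreceptor, GDNF to GFRA1, NRTN to GFRA2, ARTN to GFRA3 and PSPN to GFRA4, and each pair then engages the tyrosine kinase RET. These receptors are best known in neurons, Schwann cells and the enteric nervous system, while GFRA1 and RET also serve kidney development.

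The libraries held 26220526 to 45721152 read pairs assigned to genes. Values are CPM, the read pairs of a gene scaled by TMM to a common library total, and a gene was called where edgeR's quasi-likelihood test gave a Benjamini-Hochberg adjusted p under 0.05 over the 15352 genes tested and the fold was 2 or more. RNF113A itself stood at 19.5 to 20.3 CPM in shControl untreated and at 15.3 to 16.8 CPM in shRNF113A untreated libraries. With Cisplatin it was at 27.7 to 31.5 CPM and 24.3 to 29.9 CPM, which overlap. The epithelial keratins KRT8 and KRT18 were abundant in every library, while KRT19 had 27 to 173 reads. SOX10, a defining glial marker, had 0 reads in all 12 and the surfactant gene SFTPC had at most 5. Other markers of other cells did have reads in every library. The leukocyte marker CD68 had 1009 to 1977, though PTPRC had at most 5. The neuroendocrine markers SYP and CHGA had 149 to 593 and 34 to 174, and the fibroblast marker COL1A1 had 108 to 1368. EPCAM was at 5.57 to 18.4 CPM in shControl untreated and 85.5 to 97.6 CPM in shRNF113A untreated libraries, and its part in the depletion differences was not tested. The shControl replicate 2 libraries stood apart from their groups, with root mean square deviations of 0.285 (untreated) and 0.237 (Cisplatin) on the log2 scale against 0.0831 to 0.171 for the other 10.

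NTRK3 (chromosome 15, 88418230 to 88799999, minus strand, hg19) encodes the NTF3 receptor TrkC, and its transcripts carry alternative exons that decide whether the kinase is made. GFRA1 (chromosome 10, 117816444 to 118032979, minus strand) has a very short alternative exon. The 3 alternative exons on which the splicing results turn are shown first, read from GRCh37 on the coding strand, each within 20 bases of intron on either side. Capitals mark the exon.
NTRK3, exon of 24 nt, chr15:88671942-88671965: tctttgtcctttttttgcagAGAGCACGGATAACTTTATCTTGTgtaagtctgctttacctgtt
NTRK3, exon of 135 nt, chr15:88524457-88524591: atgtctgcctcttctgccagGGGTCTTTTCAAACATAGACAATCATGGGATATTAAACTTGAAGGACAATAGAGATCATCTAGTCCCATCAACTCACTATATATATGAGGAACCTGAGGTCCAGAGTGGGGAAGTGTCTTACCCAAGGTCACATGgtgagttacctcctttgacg
GFRA1, exon of 15 nt, chr10:117971143-117971157: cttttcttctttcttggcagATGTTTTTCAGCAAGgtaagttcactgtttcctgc
All 3 exons are flanked by AG and GT, the usual ends of introns. The 135 nt exon belongs to NTRK3-201 and NTRK3-219 of Gencode v44lift37, transcripts that end before the kinase exons. The exons are shown because reads both with and without them could be counted or, in GFRA1, because the form without it prevailed.

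Of the 7 receptors, 5 passed the filter on low counts. NTRK2, the TrkB receptor of BDNF (chromosome 9, 87283466 to 87638505), had at most 6 reads in any library. GFRA3, the ARTN coreceptor (chromosome 5, 137588068 to 137610360), had at most 5. Neither of these could be compared at this depth. GFRA2 passed only because its 3 shControl untreated libraries all had 10 or more reads, and NGFR had them in both Cisplatin groups only. GFRA1 and RET had at least 10 reads in every library.

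Levels of different genes were compared per length, as exonic fragments per kilobase of Gencode v19 exon, scaled to the exonic total of each library (FPKM). For GFRA1 that set leaves out most of the long last exon, and its reads. In shControl untreated cells NTRK3 was at 13.1 ± 2.72 FPKM (SD, n = 3) and GFRA1 at 2.40 ± 0.884, and these did not overlap each other or any other member. GFRA2 (0.206 ± 0.198), RET (0.155 ± 0.0649) and NGFR (0.0933 ± 0.0688) overlapped in their ranges and lay above GFRA3 in mean level. With Cisplatin, NGFR at 2.00 ± 0.519 FPKM and GFRA1 at 1.95 ± 0.613 overlapped at the head of the order, and NTRK3 followed at 0.829 ± 0.147. In shRNF113A untreated cells GFRA1 (0.344 ± 0.0810), NTRK3 (0.204 ± 0.0847) and RET (0.157 ± 0.0271) led, each overlapping the next. In shRNF113A Cisplatin cells NGFR stood alone at 1.54 ± 0.404 FPKM, and NTRK3 was down to 0.0114 ± 0.00534.

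NTRK3 was lower both with depletion and with Cisplatin. Its levels were 114, 149 and 101 CPM in the shControl untreated libraries and 2.73, 1.86 and 1.29 CPM in shRNF113A untreated. With Cisplatin they were 6.05, 7.67 and 6.55 CPM in shControl and 0.0323, 0.124 and 0.0748 CPM in shRNF113A cells, the last from 1, 4 and 2 reads. The 4 groups did not overlap at all. In such bulk RNA fewer expressing cells and less RNA per cell cannot be told apart. The depletion difference over both treatments was −5.99 on the log2 scale, the 4th lowest of 15352 genes, and it was −5.94 without and −6.38 with Cisplatin.

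GFRA1, the GDNF coreceptor, followed NTRK3 in the depletion contrast but not clearly in the Cisplatin contrast. It was at 22.6, 11.7 and 24.8 CPM in shControl untreated and at 3.34, 2.60 and 2.06 CPM in shRNF113A untreated libraries. With Cisplatin it was at 16.7, 8.13 and 19 CPM in shControl and 1.00, 1.14 and 0.599 CPM in shRNF113A cells. Every depleted library was below every control library of the same treatment. The depletion difference was −3.36 on the log2 scale over both treatments, 62nd from the lowest, with −2.88 untreated and −3.97 under Cisplatin. In both treatments shControl replicate 2 had the lowest GFRA1 of its group, and without these 2 libraries the difference was −3.61.

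GFRA2 (chromosome 8, 21547915 to 21669869), the NRTN coreceptor, was also lower in depleted cells, but on few reads. It had 21, 90 and 19 reads in shControl untreated and 2, 8 and 1 in shRNF113A untreated libraries, with no overlap in CPM. With Cisplatin it had 1, 16 and 0 reads in shControl and 1, 0 and 0 in shRNF113A libraries, which overlapped. The fitted difference of −3.42 ranked 54th from the lowest and became −2.22 without the shControl replicate 2 libraries, which had the highest GFRA2 of their groups in both treatments. The same libraries had the highest summed level of the 3 fibroblast markers, 35.4 CPM untreated against 5.94 and 7.19, and 14.6 CPM with Cisplatin against 7.05 and 7.56, nearly all of it COL1A1. The depleted libraries had 3.78 to 7.11 CPM of them. None of the 3 was at 0 in shControl replicate 2, and the part of these markers in the GFRA2 difference was not tested.

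RET and NGFR were not lower in depleted cells of both treatments. RET (chromosome 10, 43572475 to 43625799, plus strand) was at 0.857, 1.5 and 0.742 CPM in shControl untreated and 0.873, 1.29 and 1.01 CPM in shRNF113A untreated libraries, which overlap. With Cisplatin it was at 1.21, 1.18 and 1.09 CPM in shControl and 0.678, 0.587 and 0.561 CPM in shRNF113A cells, where the depleted libraries were lower. Its depletion difference was 0.03 on the log2 scale untreated and −0.92 with Cisplatin. NGFR (chromosome 17, 47572655 to 47592379, plus strand) overlapped between control and depleted libraries in both treatments, and its depletion difference was −0.41.

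A gene was described as lower in depleted cells where its level was lower by 2-fold or more and no library overlapped in either treatment. NTRK3 and GFRA1 met this rule, 2 of the 5 members that could be fitted, and 4.09% of all tested genes did. The share that was higher by the same rule was 3.81%, and no member was among them. Since this contrast chose the members, nothing is read from these counts. RET was lower without overlap under Cisplatin alone and NGFR in neither treatment. GFRA2 was lower without overlap in untreated cells. Under Cisplatin a shControl library had 0 GFRA2 reads, so GFRA2 could not meet the rule and allows no statement there. NTRK2 and GFRA3 allow no statement in either treatment. The genes that met the rule, NTRK3 and GFRA1, were those whose falls had prompted the choice of members.

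**Figure D1:**
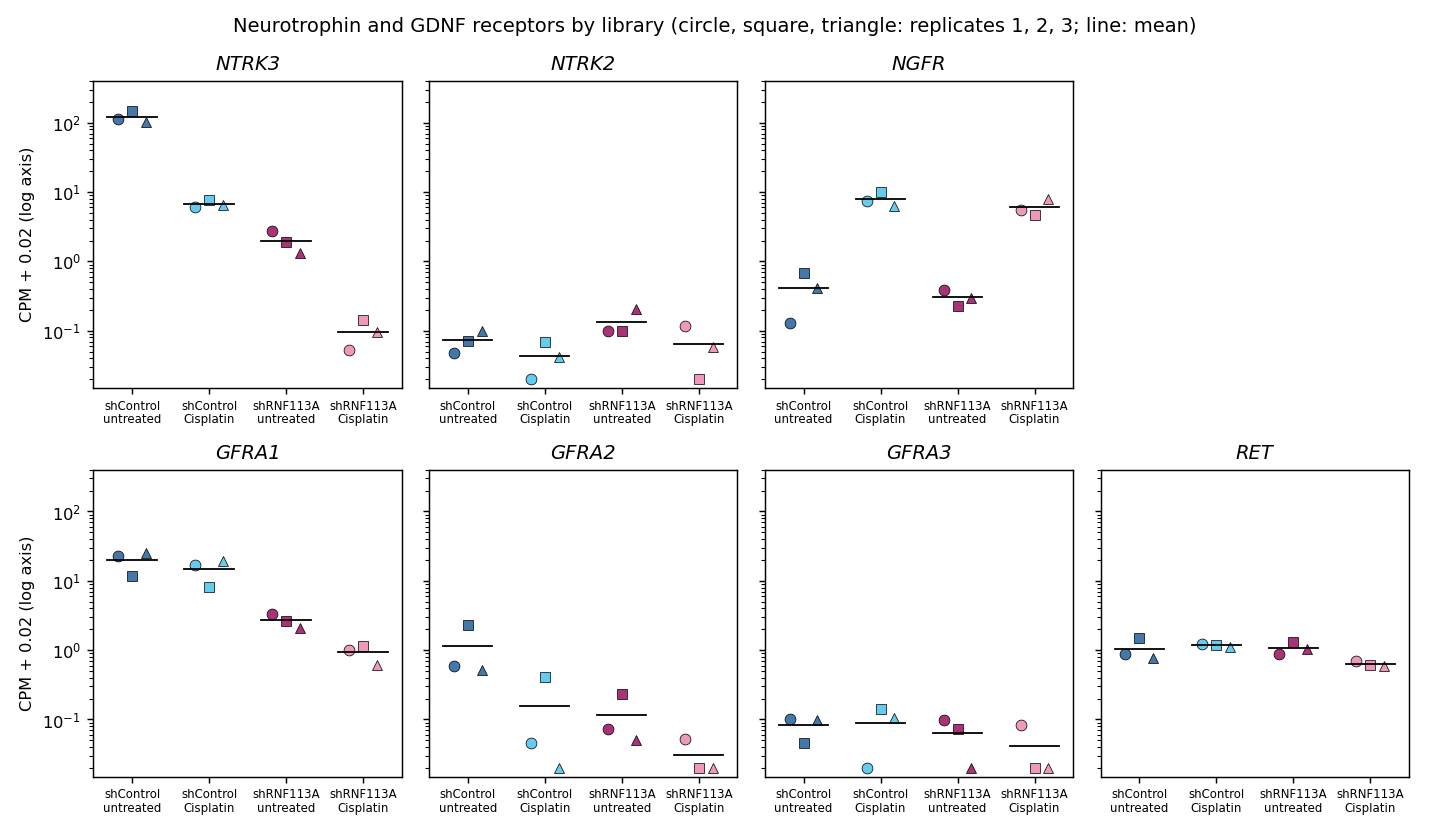
CPM, plus 0.02 so that 0 can be drawn, on a log axis for the 7 receptors in each of the 12 libraries; circles, squares and triangles are replicates 1, 2 and 3 and lines are group means. NTRK3 steps down across the 4 groups from 101 CPM or more to 0.124 CPM or less, GFRA1 drops with the hairpin, and NGFR rises with Cisplatin whichever hairpin the cells carry.

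With Cisplatin NGFR was higher and NTRK3 lower, while NTRK2 was too low to be tested. NGFR went from 4, 26 and 15 reads to 278, 418 and 298 reads in shControl cells, and from 14, 8 and 9 to 171, 151 and 211 reads in shRNF113A cells. Every treated library was above every untreated one. In CPM these were 0.111 to 0.662 without and 6.34 to 10.1 with the drug in shControl cells, and 0.210 to 0.371 against 4.67 to 7.90 in depleted cells. The fitted change of NGFR was 20.3-fold (log2 4.34 ± 0.29 SE, edgeR adjusted p = 2.57e-08). Since NGFR passed the filter through its treated libraries alone, this fit describes the reads above and adds no separate support. The change was 19.9-fold in shControl and 20.8-fold in shRNF113A cells, and the difference between them was 0.07 ± 0.58 on the log2 scale (adjusted p = 0.967).

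With Cisplatin NTRK3 fell by 4.20 on the log2 scale (± 0.19 SE, edgeR adjusted p = 7.15e-10), or 18.4-fold. The fall was 17.9-fold in shControl and 24.4-fold in shRNF113A cells, where it rests on 7 reads in the treated libraries. The difference of the falls was −0.44 ± 0.63 (adjusted p = 0.744). NTRK3 thus fell with the drug also in shRNF113A cells, where its untreated level was already below that of shControl cells.

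GFRA2 passed the filter through its shControl untreated libraries alone, so that its values with Cisplatin had to be lower and the fit is given as a description. The fitted change was −3.01 ± 0.82 on the log2 scale (SE, edgeR adjusted p = 0.0051). It was −5.25 to −2.11 with 1 library left out and −4.38 without the shControl replicate 2 libraries. In shControl cells alone the change was −3.03 ± 0.92 (adjusted p = 0.0143), and without shControl untreated replicate 2 it was −1.98 with an adjusted p of 0.0642. Without shControl Cisplatin replicate 1 it was −2.57 with an adjusted p of 0.0548, so that either library decides this call. In shRNF113A cells 11 reads without and 1 read with the drug gave −2.84 ± 2.10 (adjusted p = 0.26), and a difference between the kinds of cell was not detectable at this depth.

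GFRA1 did not reach 2-fold with Cisplatin over both kinds of cell (−0.85 ± 0.29, edgeR adjusted p = 0.0174). Without shControl untreated replicate 2 the change was −1.05 (adjusted p = 0.00217), which was called, as it was without shControl Cisplatin replicate 3 (−1.05, adjusted p = 0.00586). In shControl cells the Cisplatin and untreated libraries overlapped and the change was −0.43 ± 0.32 (edgeR adjusted p = 0.279). Each of the 3 treated libraries was nevertheless below the untreated library of the same number, and with the replicate number as a block within shControl cells the change was −0.45 with an adjusted p of 0.00266, still under 2-fold. In shRNF113A cells GFRA1 fell by 1.53 ± 0.42, or 2.88-fold (adjusted p = 0.00747), and no library overlapped. The difference between these effects was −1.10 ± 0.53 and missed the threshold over all 12 libraries (adjusted p = 0.258). Without the shControl replicate 2 libraries it was −1.12 ± 0.27 (adjusted p = 0.0118), past the threshold, beside 3.38% of all genes called in that fit.

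RET was not called for Cisplatin in either kind of cell. Its change was 0.16 ± 0.27 in shControl cells (edgeR adjusted p = 0.642) and −0.79 ± 0.29 in shRNF113A cells (adjusted p = 0.0339, under 2-fold). The difference was −0.95 ± 0.40 (adjusted p = 0.192). It became −1.31 ± 0.36 (adjusted p = 0.0208) without the shControl replicate 2 libraries, and −1.32 (adjusted p = 0.0297) without shControl untreated replicate 2 alone.

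Over both kinds of cell NGFR was called higher and NTRK3 and GFRA2 lower with Cisplatin, where 10.3% of all tested genes were called higher and 11.2% lower. In shControl cells the same 3 genes were called, beside 9.16% higher and 10.6% lower of all genes. In shRNF113A cells NGFR was called higher and NTRK3 and GFRA1 lower, beside 11.6% and 11.5%. No member was called for the difference of the Cisplatin effects by edgeR or by DESeq2. Of all genes, 0.769% were called with a positive and 0.508% with a negative difference. RET, 1 of 5, had an unadjusted edgeR p under 0.05 for this difference, as had 3318 of all 15352 tested genes. GFRA2 and NGFR entered the test through their high groups, so the members' counts are a description.

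**Figure D2:**
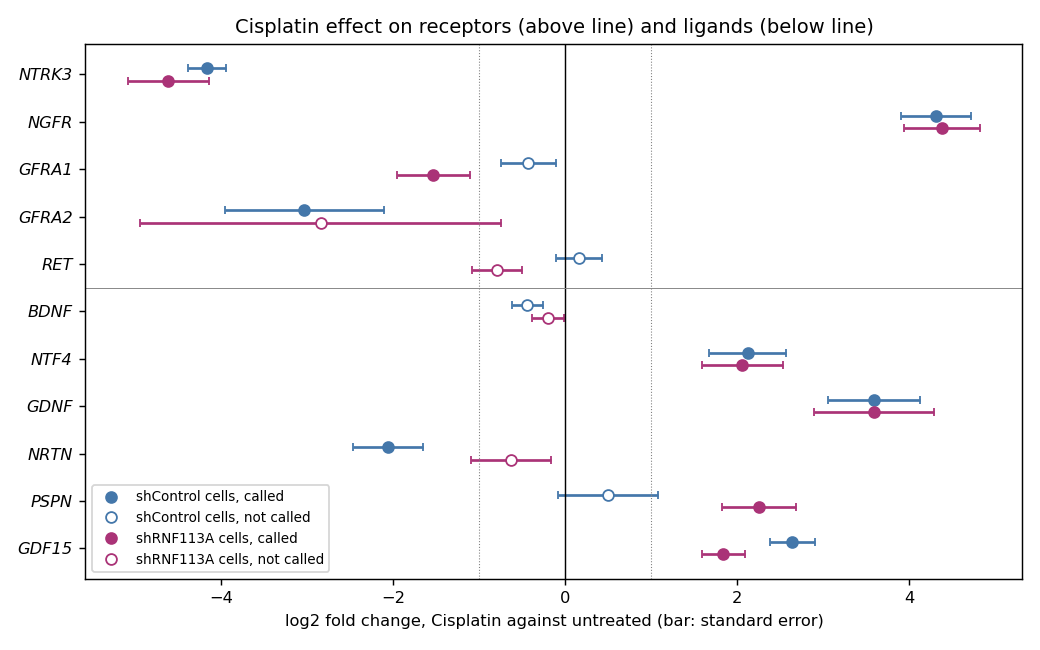
Log2 fold change of Cisplatin against untreated cells, with its standard error, for the receptors and ligands that could be tested, in shControl (blue) and shRNF113A cells (purple); filled points passed the test and dotted lines mark a 2-fold change. NGFR, NTF4 and GDNF lie to the right and NTRK3 to the left in both kinds of cell, while GFRA1, GFRA2, NRTN and PSPN are filled in 1 of them, and none of the 4 had a called difference between them.

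The ligands also moved in both directions. Of 8 ligands, 6 were tested, and 4 were called higher and 1 lower with Cisplatin, beside 10.3% and 11.2% of all tested genes. Of these 5, GDNF, NTF4, PSPN and NRTN had 10 reads in every library of a group only on the side where they are high, so this count and their changes are a description. GDNF had 7, 24 and 7 reads in shControl untreated and 98, 292 and 121 in shControl Cisplatin libraries, and 4, 4 and 1 against 39, 38 and 17 in shRNF113A cells. It was 12.1-fold higher (log2 3.59 ± 0.41 SE, edgeR adjusted p = 3.81e-06). Like its coreceptor GFRA1, GDNF was lower in every depleted library than in the control libraries of the same treatment. The GDNF difference was −1.97 on the log2 scale. In shRNF113A Cisplatin libraries GDNF was at 0.636 to 1.26 CPM, above the 0.186 to 0.611 CPM of shControl untreated libraries.

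NTF4, a ligand of TrkB, was 4.26-fold higher (adjusted p = 6.09e-05, edgeR) and PSPN 3.16-fold higher (adjusted p = 0.00263), the latter from at most 0.236 CPM without the drug, with 10 reads in every library of shRNF113A Cisplatin alone, and called in shRNF113A cells (adjusted p = 0.000629) but not in shControl cells (adjusted p = 0.487). The difference for PSPN was not called (adjusted p = 0.203). GDF15, a stress-induced ligand of the RET coreceptor GFRAL, was at 59.6 to 105 CPM in shControl untreated and 383 to 746 CPM in shControl Cisplatin libraries, a rise of 4.73-fold over both kinds of cell (adjusted p = 5.55e-07). GFRAL had 0 reads in every library, and GFRA4, the PSPN coreceptor, had 1 read in all 12 libraries together. NRTN, the ligand of GFRA2, was 2.68-fold lower (adjusted p = 0.00306). BDNF, the other ligand of TrkB, was at 18.2 to 21.6 CPM in shControl untreated and 10.4 to 13.5 CPM in shRNF113A untreated libraries, and its Cisplatin change of −0.33 was under 2-fold. ARTN was too low to test, and NTF3, the ligand of NTRK3, had 0 reads in every library.

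In the wider list of 60 ligands, receptors, adaptors, NGFR partners and proteases, 49 genes were tested, of which 7 (14.3%) were called higher and 8 (16.3%) lower with Cisplatin, beside 10.3% and 11.2% of all tested genes. Of these 15, 6 passed the filter only on the side where they are high, the 4 ligands above, NCAM1 and DOK6. Their median change was 0.01 on the log2 scale and that of all tested genes 0.03. Among the 7 other receptors tested, NCAM1, SORT1 and TNFRSF19 fell. NCAM1, an alternative partner of GFRA1, fell 14.7-fold (edgeR adjusted p = 2.73e-06). It was higher in depleted cells, with 2.81 to 3.04 CPM against 0.186 to 0.841 CPM untreated. SORT1, the proneurotrophin coreceptor that pairs with NGFR, fell 2.43-fold (adjusted p = 2.48e-07), and TNFRSF19, an NGFR relative, fell 6.03-fold (adjusted p = 9.91e-05).

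Among 22 adaptors tested, 2 were called higher and 2 lower (9.09% each), near the shares of all genes. SHC1 (2.09-fold, edgeR adjusted p = 2.82e-08) and SH2B3 (2.04-fold, adjusted p = 5.14e-07) rose and GAB2 (2.25-fold, adjusted p = 6.35e-06, under 2-fold in unstranded counts) and DOK6 (17.7-fold, adjusted p = 2.46e-05) fell. The SH2B3 call held in 16 of 19 alternatives. It was lost with DESeq2 and without Cisplatin replicate 3 of either shControl or shRNF113A cells. SHC1 and GAB2 couple receptor tyrosine kinases to Ras and phosphatidylinositol 3-kinase. DOK4, a docking protein that binds RET, was lower in depleted cells, with 95.4 to 114 CPM in shControl and 26.4 to 32.1 CPM in shRNF113A untreated libraries. None of the 8 tested NGFR partners was called by edgeR or DESeq2. Of these 8, 4 had an adjusted edgeR p under 0.05 and 4 an unadjusted one. Of all 15352 tested genes, 10260 and 10682 did. Among the 6 proteases of ligands and receptors, PCSK5 and PCSK6 fell 4.12-fold and 3.38-fold and PLAT, the tissue plasminogen activator, rose 3.17-fold (edgeR adjusted p = 7.81e-06, 8.46e-09 and 1.18e-06).

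The difference of the Cisplatin effects was called for SORCS2 and PCSK5 among these 49 genes, negative in both. Of all tested genes, 0.508% were called with a negative and 0.769% with a positive difference. SORCS2, another proneurotrophin receptor of the sortilin family, went from 0.553, 0.433 and 0.849 to 4.08, 1.59 and 4.87 CPM in shControl cells and from 1.43, 1.89 and 1.84 to 0.905, 0.649 and 0.748 CPM in shRNF113A cells. The difference was −3.68 ± 0.55 on the log2 scale (edgeR adjusted p = 0.00979) and held in all 19 alternatives. The rise in shControl cells held in all 20 alternatives and the fall in shRNF113A cells in 16 of 20, since without untreated replicate 2 or 3 or Cisplatin replicate 2 or 3 of these cells its adjusted p was 0.0557 to 0.0659. PCSK5 fell 2.70-fold in shControl and 7.01-fold in shRNF113A cells (difference −1.37 ± 0.34, adjusted p = 0.0421), but with the replicate number as a block the adjusted p of the difference was 0.0545, and 7 of 19 alternatives kept the call.

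**Figure D3:**
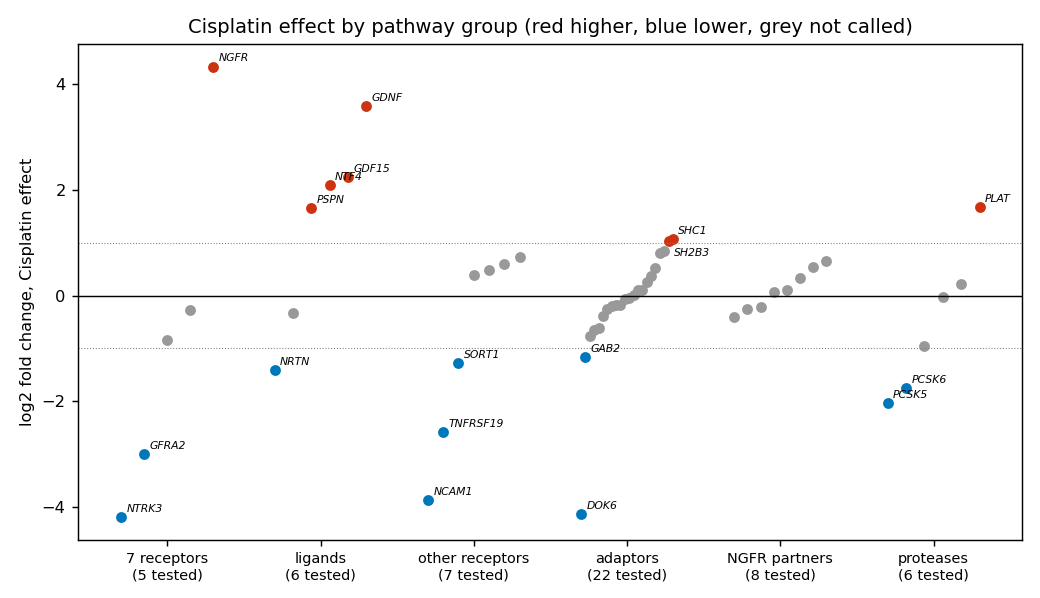
Log2 fold change of Cisplatin over both kinds of cell for each tested gene, by group; red points were called higher, blue lower and grey neither, and dotted lines mark a 2-fold change. The 7 receptors and the ligands hold called genes on either side, while all 8 tested NGFR partners lie within 2-fold.

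Reads on alternative exons showed which forms of NTRK3 and GFRA1 were present. The splicing tables listed 10 events of member genes, 6 in NTRK3, 3 in GFRA1 and 1 in RET. Of 22 entries, an event in a comparison, 6 had 10 or more reads in every library, all of them in the comparison of shControl cells without and with Cisplatin. In depleted cells NTRK3 had too few reads for an inclusion level. The order of the 3 libraries in these tables is not labelled.

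The 24 nt exon of NTRK3, printed above, was included at 54.6% ± 1.95 (SD, n = 3) in shControl untreated and 56.1% ± 15 with Cisplatin, after dividing inclusion and skipping reads by their effective lengths. Both forms were thus present at similar levels, and the Cisplatin libraries, with 19 reads in the lowest, spread from 44.4% to 73%. The 135 nt exon was included at 56.0% ± 6.45 and 78.1% ± 19.1. Its untreated range of 49.7% to 62.6% lay below the range of 65.7% to 100% with the drug, which rests on 6 skipping reads against 64 inclusion reads in all. The skipping junction occurs in v44lift37 only in NTRK3-207, a transcript annotated for nonsense-mediated decay. Other transcripts without the 135 nt exon are therefore counted on neither side. The inclusion level of this exon is thus not the share of NTRK3 that lacks the kinase.

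The 15 nt exon of GFRA1 had 1 inclusion and 53 skipping reads in shControl untreated and 1 and 61 in shControl Cisplatin libraries, so the form without it prevailed in both. Its lowest library had 8 reads, so it is not among the 6 entries with 10 or more. The remaining entries among those 6, exons of 65 and 69 nt in NTRK3 and of 110 and 286 nt in GFRA1, had mean inclusion of 95.9% to 100%.

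**Figure D4:**
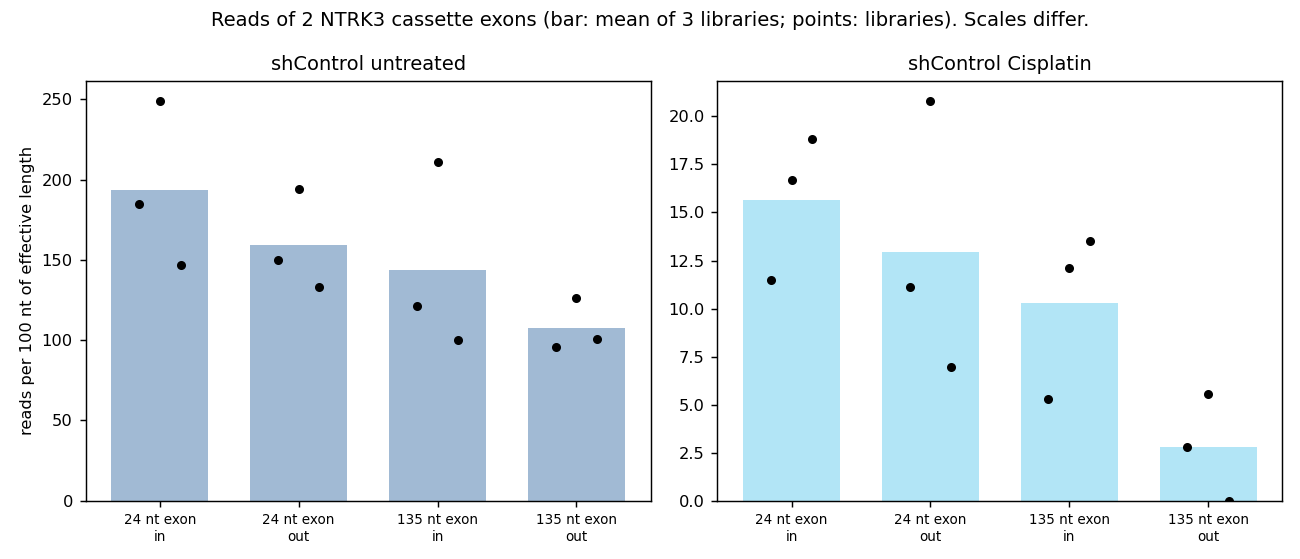
Reads per 100 nt of effective length that include (in) or skip (out) the 24 and 135 nt exons of NTRK3 in shControl cells, without Cisplatin on the left and with it on the right, on different scales; bars are means and points the 3 libraries. Both forms of each exon have reads in every untreated library, and all bars are lower with Cisplatin.

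Reads within a gene but outside its annotated exons, in the filtered Gencode v19 set, gave values for 3 members. On the log2 scale the change with Cisplatin was −4.45 ± 0.19 for NTRK3 (edgeR adjusted p = 6.19e-12) and −1.01 ± 0.21 for GFRA1 (adjusted p = 0.000611). The GFRA1 value lies at the 2-fold limit, and 5 of 16 alternatives kept its call. Of all genes, 8.23% were called higher and 7.81% lower. NGFR was also called higher, but it had 1 such read in the 6 untreated libraries together, against 3 to 22 in each Cisplatin library, so no fold is given. These reads are not all intronic: the filtered set has 3078 nt of GFRA1 exon and starts its last exon at 117822953, where v44lift37 has 10655 nt and continues to 117816436. For NTRK3 the 2 sets hold 6243 and 26773 nt.

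Across the 12 libraries the genes whose log2(CPM + 1) ran most closely with NTRK3 were FXYD6, FBXO43, AMBP, MALT1 and UPK1B, with Pearson r from 0.980 to 0.985. For GFRA1 they were SP3 (r = 0.988), PRICKLE2, PVRL3, SH3BP4 and TRIM6 (0.973 to 0.976). These 12 points fall into 4 groups, so the values mostly describe the group means. SP3, a transcription factor, averaged 148 CPM in shControl untreated, 135 in shControl Cisplatin, 87.6 in shRNF113A untreated and 76.3 CPM in shRNF113A Cisplatin libraries. NTRK3 and GFRA1 had r = 0.85 with each other. With GFRA2 the r was 0.80 for NTRK3 and 0.45 for GFRA1.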

How the data were processed

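A549 libraries (TruSeq stranded mRNA, paired reads) were aligned by the authors to hg19 with STAR 2.5.2b, and the deposited gene counts are raw read pairs per gene; the column for the gene's strand was used. The authors counted exonic and genic reads with HTSeq on Gencode v19 protein-coding genes, and junction reads with rMATS 3.2.5 on Ensembl release 75. The deposited p-values and differences of the splicing tables hold the authors' own comparisons and were not used. Reads not assigned to a gene (14% to 22.6% per library) were left out.

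The 7 members and all gene lists were chosen with earlier results of these data known. Genes were filtered with filterByExpr, scaled by TMM and fitted with edgeR 4.0.16 (quasi-likelihood), additively for drug and hairpin and with their interaction; p-values were adjusted over all tested genes. Standard errors are the log2 fold change over the root of the F statistic. The scripts were tested on simulated data. Alternatives used unstranded counts, other filters or scaling, DESeq2 1.42.0, a replicate block, and fits without each library. Reads outside exons were genic minus exonic counts, without 1086 genes where this was negative. Inclusion levels were recomputed from reads over effective lengths. The named genes are the members, GFRA4, RNF113A, the ligands, pathway genes called for Cisplatin or the interaction, and the 5 genes most like NTRK3 and GFRA1, with the cell type markers; DOK4 was added after its values were seen, and a few items of these lists are not reported here. Replicates are biological replicates per the study's methods.

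Deviations of same-numbered shControl libraries across treatments had r = 0.60, 0.71 and 0.46 over genes, and those of shRNF113A libraries r = 0.30, −0.02 and 0.27. Libraries of different number were not compared, and replicate 2 stood apart in both shControl groups. These values therefore do not settle whether libraries pair by number.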

Additional observations from a re-analysis of the deposited data

Results flagged for a closer look

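For SORCS2 the Cisplatin effect differed between shControl and shRNF113A cells by −3.68 on the log2 scale, by the interaction term of the edgeR fit, and was called in all 19 alternatives. PCSK5 differed by −1.37 and was called in 7 of 19. NKX2-1, a lung transcription factor that had at most 20 reads in any library, differed by 2.15 (adjusted p = 0.0251): it was not called in shControl cells (0.40, adjusted p = 0.247) and rose by 2.55 in shRNF113A cells (adjusted p = 5.28e-05), and the difference was called in 11 of 18 alternatives and not by DESeq2 (adjusted p = 0.0543). The groups of 3 libraries are too small for the check of single outlying samples.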

How the results depend on the processing

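The Cisplatin calls of NTRK3 and NGFR held in every alternative in which they were fitted. Requiring 10 counts in every library removed NTRK3, NGFR and GFRA2, which left 0 members called for Cisplatin, 0 in shControl and 1 in shRNF113A cells, 1 member lower on depletion, 2121 genes called for Cisplatin and 363 lower on depletion. With each library left out, the members called numbered 3 to 4 for Cisplatin, 2 to 3 in shControl and 3 in shRNF113A cells, 0 to 1 for the interaction and 2 for depletion; 75 to 420 genes were called for the interaction, which has 196 over all libraries. The choice to leave out both shControl replicate 2 libraries was made after seeing the data; it called 522 genes and 2 members, GFRA1 and RET, for the interaction, and GFRA2 in shRNF113A cells (adjusted p = 0.0396). GFRA1 passed 2-fold for Cisplatin (−1.05) without shControl untreated replicate 2 or shControl Cisplatin replicate 3.

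For reads outside exons, the TMM factors of the gene counts called 2845 genes, 88% of them higher against 51.3% with their own factors, moved the median change of all genes from 0.00 to 0.53 and gave −0.66 for GFRA1, no longer called; 10 such reads in every library left 0 members and 1100 genes. Leaving out each library called 2 to 3 members. With 20 reads in every library, 2 splicing entries remained of 6, and neither is of the 24 or 135 nt exon of NTRK3. The replicate block over all 12 libraries called 3 members for Cisplatin, 3 in shControl, 3 in shRNF113A cells, 0 for the interaction and 3 for reads outside exons, and within shControl cells alone it called 3 members and 2949 genes against 3037. It changed no call of a member, and of the other named genes it ended only the interaction of PCSK5 (adjusted p = 0.0545). The cause of the changes in the interaction and in the reads outside exons was not tested. Depth limits NTRK2, GFRA3, GFRA2 in treated cells and the NTRK3 exons in depleted cells.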

Other observations

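Of the 5 epithelial markers, KRT8, KRT18 and CDH1 were called lower with Cisplatin by edgeR, beside 11.2% of all tested genes. DESeq2 called 4 of the 5. EPCAM was higher in depleted cells by the rule used for the receptors. By the same rule CHGA (1.03 on the log2 scale) and the fibroblast marker COL3A1 (2.52, from 0 to 7 reads in control and 14 to 20 in depleted libraries) were higher and COL1A1 (−1.16) was lower in depleted cells. The highest COL1A1 of shControl untreated libraries, 34.9 CPM, was in replicate 2, against a group median of 7.08 CPM. The shRNF113A untreated libraries had 3.32 to 5.64 CPM. With Cisplatin shControl had 6.58 to 14 CPM (median 7.13), highest in replicate 2, and shRNF113A 5.81 to 6.29 CPM. Of the neuroendocrine and neuronal markers 2 of 5 could be tested, SYP (−0.67, edgeR adjusted p = 0.00143) and CHGA (0.99, adjusted p = 0.000684), both under 2-fold over both kinds of cell and not called by DESeq2. CHGA was called higher in shControl cells (2.57-fold, adjusted p = 0.000863). Of the fibroblast markers 3 of 3 were tested for Cisplatin (0 called, 1 at an unadjusted p under 0.05, 0 by DESeq2) and of the leukocyte markers 1 of 2 (CD68; 0 called, 0 at an unadjusted p under 0.05, 0 by DESeq2).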
